A study of Mus musculus with 16 samples.

Results

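The genes described here are the Notch ligands Dll1, Dll4, Jag1 and Jag2 and the ubiquitin ligases Mib1 and Neurl1b, which act on the ligands. They were chosen by name, and all 6 were among the 28971 genes of the count table. Whole kidneys of mice were compared after deletion of Hes1, a transcriptional repressor that Notch receptors switch on. The Hes1 cKO (conditional knockout) animals carried Pax8-rtTA, TRE-Cre and Hes1 f/f, so that doxycycline induces Cre where the Pax8 promoter is active, which in the kidney is the tubule epithelium. By that design endothelial and stromal cells would keep Hes1, but neither Cre activity nor Hes1 was measured by cell type here. The controls were wild type littermates, and the sources used here do not say which of the transgenes or floxed alleles they carried. Animals of both groups drank doxycycline at 1 mg/mL with 5% sucrose for 1 week, starting at 3 weeks of age. The comparison used 3 Hes1 cKO and 4 control libraries. Their column names give the genotype and further numbers whose meaning is not stated, and they do not give the sex. The numbers below only name libraries by their order within a group. Nothing in the labels says whether libraries of a group came from separate litters or preparations. The p-values judge the difference between the groups against the spread between these libraries only.

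Notch signalling passes between cells that touch. A Delta-like or Jagged ligand on the sending cell binds a Notch receptor on its neighbour, and the ligand must be ubiquitinated by Mindbomb (Mib1) or Neuralized proteins and taken up by the sending cell to pull the receptor open. The freed receptor fragment joins Rbpj in the nucleus of the receiving cell and turns on repressors of the Hes and Hey families, and in many tissues these repressors hold down Delta genes of the receiving cell, a circuit known as lateral inhibition. In the collecting duct, cells that receive a Notch signal become principal cells, the sodium- and water-absorbing type, and cells that escape it become intercalated cells, which move acid and base. Dll4 is best known from arterial endothelium, and Jag1 and Jag2 are made by both epithelial and vascular cells.

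The sequence before the start of the 2 ligand genes that rose is shown because Hes1 and its relatives bind short DNA motifs close to gene starts. RefSeq promoter windows (GRCm38.p6, 250 bases before a start site) were found for 5 of the 6 genes, with 2 start sites for Dll1. The windows were searched on both strands for the class C site CACGNG and the N-box CACNAG, which Hes proteins bind, and for the Rbpj motif GTGGGAA. The letters CACGAG satisfy both of the first motifs. Capitals mark matches to CACGNG, read on either strand, and both sequences are on the minus strand, written 5′ to 3′. The Dll1 stretch is chr17:15376933-15377182 and the Jag1 stretch, limited to bases that lie before both the RefSeq and the GENCODE start of the gene, is chr2:137116645-137116770.
Dll1: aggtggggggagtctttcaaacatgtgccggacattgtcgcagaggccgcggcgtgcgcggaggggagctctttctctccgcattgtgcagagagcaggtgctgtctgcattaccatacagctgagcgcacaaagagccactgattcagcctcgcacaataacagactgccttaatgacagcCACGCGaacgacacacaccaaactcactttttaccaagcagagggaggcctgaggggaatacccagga
Jag1: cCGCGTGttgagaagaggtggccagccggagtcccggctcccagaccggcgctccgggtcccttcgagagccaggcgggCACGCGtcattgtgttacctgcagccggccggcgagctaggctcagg

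The class C motif was present in 4 of the 6 windows, which belong to 3 genes, and in 23.5% of all 32841 promoter windows of that length. In the Dll1 window shown, the match began 68 bases before the RefSeq start site, and the window of the other Dll1 start site held 1 match at 105 bases. The window of that other start site and the Jag2 window lie within their genes as annotated in GENCODE. Jag1 had 2 matches, at 249 bases on the opposite strand and at 171 bases. Dll4 had 1 class C match, at 195 bases, and the 1 N-box match found, at 75 bases. The N-box occurred in 36.7% of all windows. Windows of Jag2 and Neurl1b held none of the 3 motifs, and the Rbpj motif, present in 5.41% of all windows, was in none of the 6. The windows had a GC content of 56.0% to 87.2% and 13 to 54 CpG dinucleotides, against medians of 52.4% and 6 over all windows. The Jag2 window had the highest GC content. The motif CACGNG holds a CpG, and the shares over all windows were not matched for CpG count. These are matches of letters and no measure of binding.

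Read counts are given as CPM, counts scaled to library size and corrected by TMM (a factor per library that evens out differences in composition). Total counts were 16973931 to 20420422 per library. A gene is called when its p-value from edgeR's quasi-likelihood test, adjusted over all 15615 tested genes by the Benjamini-Hochberg method, is under 0.05. Hes1 itself was at 17.2 to 19.8 CPM in the Hes1 cKO libraries and at 42.8 to 67.6 CPM in the controls. It fell by 1.61 on the log2 scale (SE 0.16, edgeR adjusted p 0.00357), so the group names held for the targeted gene. The sources used here do not give the deleted part of Hes1. Summed markers of proximal tubule, thick ascending limb and of both collecting duct cell types were high in every library, although the principal cell marker Avpr2 had too few reads to be tested.

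Of the 6 genes, 2 were called and both rose in Hes1 cKO: Dll1, which went up 2.34-fold, and Jag1, which went up 1.56-fold. Among all tested genes 0.339% were called in either direction, 0.320% were called higher and 0.0192% were called lower. All 6 had a log2 fold change above 0, as had 48.4% of all tested genes. The median log2 fold change was 0.34 over the 6 genes and -0.0064 over all tested genes. The groups did not overlap for Dll1, Jag1 and Neurl1b, each higher in Hes1 cKO, which held for 3.71% of all tested genes, and another 3.29% were lower without overlap. At an unadjusted p under 0.05 there were 3 of the 6 (Dll1, Jag1 and Neurl1b), against 5.95% of all genes. In bulk RNA, more cells of a type and more RNA per cell cannot be told apart, and this holds for each level below.

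**Figure D1:**
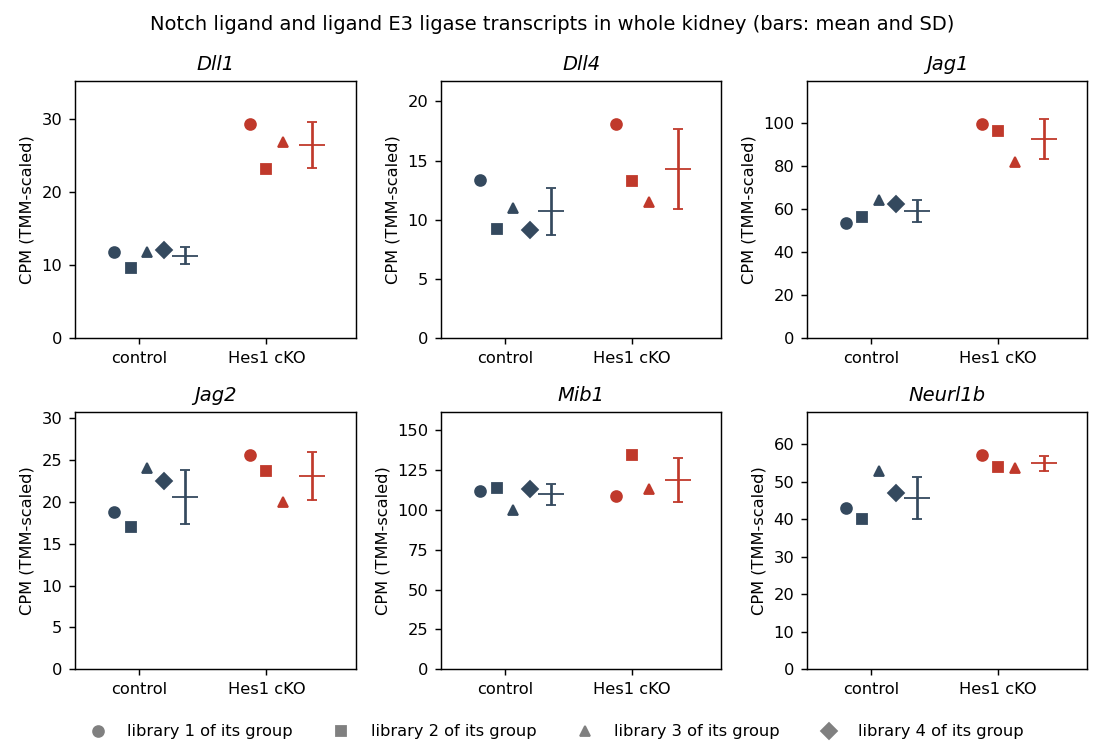
CPM (TMM-scaled counts, axes from 0) of the 4 ligand genes and the 2 ligase genes in each of 4 control and 3 Hes1 cKO libraries, 1 point per library with the mean and SD beside the points. The Hes1 cKO libraries sit between 23.1 and 29.4 CPM for Dll1 and between 82.1 and 99.7 CPM for Jag1, all above the controls, while those of Dll4, Jag2 and Mib1 overlap the controls.

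Dll1 (ENSMUSG00000014773; chr17:15367354-15376872 on the minus strand of GRCm38, 12 exonic segments of 4219 bases in all in GENCODE M21) is the Delta ligand best known from lateral inhibition. It was at 29.4, 23.1 and 26.8 CPM in Hes1 cKO 1, 2 and 3. In control 1, 2, 3 and 4 it was at 11.8, 9.58, 11.8 and 12.1 CPM. Every Hes1 cKO library was thus far above every control, the lowest by 1.92-fold over the highest control. The means were 26.4 ± 3.13 CPM (SD, n = 3) and 11.3 ± 1.16 CPM (SD, n = 4). The log2 fold change of 1.22 (SE 0.12, 95% confidence interval 0.94 to 1.503) had an edgeR adjusted p of 0.00357 and ranked 12th among the tested genes by p. The exact two-sided permutation test on log2(CPM + 1) gave p = 0.0286, the smallest that 3 against 4 libraries allow. The spread of Dll1 within a group, a coefficient of variation of 11.8% in Hes1 cKO and 10.3% in control, was larger than the 4.50% and 6.97% that counting alone gives at 181 to 555 reads per library. An annotated transcript on the opposite strand, A930024N18Rik, covers 20.5% of the Dll1 exon bases. The sources used here do not say whether counting used the strand. No gene of the name A930024N18Rik is among the genes counted, so reads of the pair cannot be told apart.

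Jag1 (ENSMUSG00000027276; chr2:137081456-137116644, minus strand, 25 exonic segments of 5827 bases) was the most abundant of the 4 ligands per length. It was at 99.7, 96.2 and 82.1 CPM in Hes1 cKO 1, 2 and 3 and at 53.7, 56.3, 64.4 and 62.6 CPM in control 1, 2, 3 and 4. The groups were apart, and the lowest Hes1 cKO library lay 1.27-fold above the highest control. Means of 92.7 ± 9.31 CPM (SD, n = 3) and 59.3 ± 5.06 CPM (SD, n = 4) differed by 0.64 on the log2 scale (SE 0.10, 95% confidence interval 0.42 to 0.87, edgeR adjusted p 0.0332). The exact permutation p was 0.0286. The call was lost when Hes1 cKO 1 or 2 or any 1 of the 4 controls was left out (edgeR adjusted p 0.0560 to 0.201), and it was kept without Hes1 cKO 3 (0.0323). The log2 fold change stayed between 0.59 and 0.72 in those 7 fits.

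Dll4 (ENSMUSG00000027314; chr2:119325784-119335962, plus strand, 11 exonic segments of 3852 bases), a ligand best known from sprouting and arterial vessels, was not called. It was at 18.1, 13.3 and 11.5 CPM in Hes1 cKO 1, 2 and 3 and at 13.4, 9.27, 11.03 and 9.17 CPM in control 1, 2, 3 and 4. Hes1 cKO 1 stood highest, and the other Hes1 cKO libraries lay within the control range. On the log2 scale Hes1 cKO was higher by 0.42 (SE 0.19, edgeR adjusted p 0.841). The 95% confidence interval, -0.0049 to 0.84, reached from no change to a 1.79-fold rise. The difference was 0.21 without Hes1 cKO 1 and 0.68 without Hes1 cKO 3 and control 1 (edgeR adjusted p 0.304), a pair left out for a reason given with the adrenal markers below. An unnamed transcript on the opposite strand, Gm14207, shares 5.56% of the Dll4 exon bases. It had 39, 60 and 67 reads in the Hes1 cKO libraries and 32, 22, 29 and 30 in the controls, a log2 difference of 0.94 (SE 0.28) with an edgeR adjusted p of 0.550. Gm14207 was highest in Hes1 cKO 3, the Hes1 cKO library in which Dll4 was lowest.

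Jag2 (ENSMUSG00000002799; chr12:112907819-112929776, minus strand, 24 exonic segments of 6965 bases) is the closest relative of Jag1. Hes1 cKO 1, 2 and 3 had 25.7, 23.7 and 19.997 CPM of it, and control 1, 2, 3 and 4 had 18.8, 16.998, 24.0 and 22.5 CPM. The groups overlapped. The log2 fold change, 0.17 with an SE of 0.14 and an edgeR adjusted p of 0.961, had a 95% confidence interval from -0.16 to 0.49, so that a rise of more than 1.41-fold lay outside it. The log2 difference was 0.09 without Hes1 cKO 1 and 0.26 without Hes1 cKO 3.

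Neither of the ligases was called. Mib1 (ENSMUSG00000024294), the main ligand ubiquitin ligase of mammals, was at 109, 135 and 113 CPM in Hes1 cKO 1, 2 and 3 and at 112, 114, 99.9 and 113 CPM in control 1, 2, 3 and 4. Only Hes1 cKO 2 exceeded the control range. The difference was 0.11 on the log2 scale (SE 0.10, 95% confidence interval -0.11 to 0.33), with an edgeR adjusted p of 0.960. It was 0.02 without Hes1 cKO 2 and 0.17 without Hes1 cKO 1. Neurl1b (ENSMUSG00000034413; chr17:26414829-26446349, plus strand, 5 exonic segments of 6331 bases), a Neuralized family ligase, was at 57.2, 54.0 and 53.6 CPM in Hes1 cKO 1, 2 and 3 and at 42.9, 40.1, 52.9 and 46.9 CPM in control 1, 2, 3 and 4. The groups were apart by a narrow margin, as the lowest Hes1 cKO library was 1.01-fold above control 3. The log2 fold change of 0.27 (SE 0.10, 95% confidence interval 0.04 to 0.49) had an unadjusted p of 0.0275 and an edgeR adjusted p of 0.738, and the exact permutation p was 0.0571.

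The order of the 6 genes was compared per length, as RPKM, CPM divided by the exon length in kilobases, with exon lengths from GENCODE M21. In control, Jag1 was at 10.2 ± 0.869 RPKM (SD, n = 4) and Mib1 at 10.04 ± 0.606, and their ranges overlapped. Neurl1b followed at 7.22 ± 0.871 RPKM, apart from both. Jag2 at 2.96 ± 0.466, Dll4 at 2.78 ± 0.511 and Dll1 at 2.68 ± 0.275 RPKM came last with overlapping ranges. In Hes1 cKO, Jag1 stood alone at 15.9 ± 1.597 RPKM (SD, n = 3), above Mib1 at 10.9 ± 1.26 and Neurl1b at 8.68 ± 0.310. Dll1 came next at 6.27 ± 0.741 RPKM, and its range no longer touched those of Dll4 (3.71 ± 0.881) and Jag2 (3.32 ± 0.413), which still overlapped each other.

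Whether the ligands differed from one another in their response was tested on ratios within a library, which do not depend on how libraries are scaled. For the 6 pairs of ligands, the exact two-sided permutation test was run on the log2 ratio and p was adjusted over the pairs. The smallest p the design allows is 0.0286 before adjustment. Dll1 gained on all 3 other ligands. The ratio of Dll1 to Jag1 reads was 0.295 in Hes1 cKO 1, 0.240 in Hes1 cKO 2 and 0.327 in Hes1 cKO 3. The 4 controls had 0.220, 0.170, 0.183 and 0.193, without overlap. On the log2 scale the mean ratio rose by 0.58, from -2.39 ± 0.156 (SD, n = 4) to -1.81 ± 0.225 (SD, n = 3), and the exact permutation p was 0.0286 (0.0429 adjusted). Against Jag2 the log2 ratio of Dll1 rose by 1.05 and against Dll4 by 0.81, each with the same exact p and adjusted p.

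Jag1 gained on Jag2. The ratio of Jag1 to Jag2 reads was 3.88, 4.05 and 4.11 in the Hes1 cKO libraries and 2.86, 3.31, 2.68 and 2.78 in the controls, a log2 difference of 0.47 (exact permutation p = 0.0286, adjusted 0.0429). All 3 Hes1 cKO values lay above the 4 controls. The ratio of Dll4 differed neither against Jag1 (log2 difference -0.23, exact permutation p = 0.429) nor against Jag2 (0.24, exact permutation p = 0.314) by more than the spread between libraries, and both ratios overlapped between the groups. With 1 library left out, the log2 difference ran from -0.36 to -0.08 against Jag1 and from 0.12 to 0.39 against Jag2. Of the length-scaled reads of the 4 ligands, Dll1 took 14.4% ± 0.867 (SD, n = 4) in control and 21.5% ± 2.58 (SD, n = 3) in Hes1 cKO. The share of Jag1 was 54.8% ± 2.94 and 54.5% ± 2.39, that of Jag2 15.8% ± 1.32 and 11.4% ± 0.448, and that of Dll4 15.0% ± 2.86 and 12.6% ± 1.65, in the same order. The sum of the 4 ligands was 18.6 ± 1.45 RPKM (SD, n = 4) in control and 29.2 ± 3.08 RPKM (SD, n = 3) in Hes1 cKO.

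**Figure D2:**
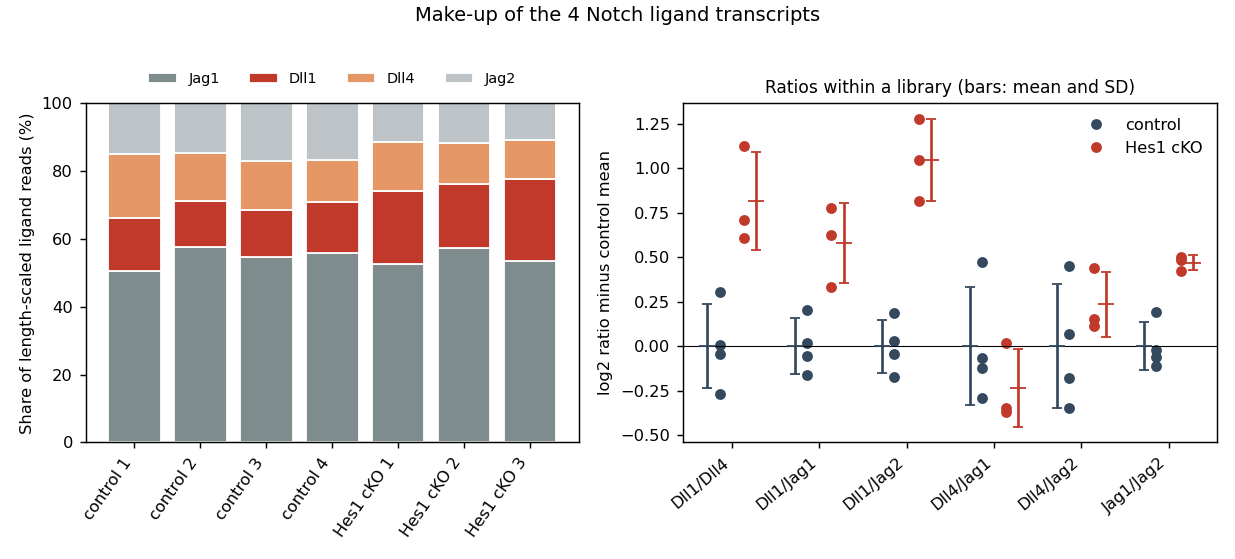
Left, share in percent of each ligand among the length-scaled reads of the 4 ligands in each library. Right, log2 ratio of each pair of ligands in each library minus the control mean of that pair, with mean and SD; the Hes1 cKO points lie above all control points for Dll1/Dll4, Dll1/Jag1, Dll1/Jag2 and Jag1/Jag2 and overlap them for Dll4/Jag1 and Dll4/Jag2.

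The rest of the Notch pathway was read from 8 lists of 42 genes in all, of which 39 were tested. No gene of these lists was called by edgeR or by DESeq2's Wald test, where edgeR called 0.339% of all tested genes. Of the 39 genes, 4 had an unadjusted edgeR p under 0.05 (Notch1, Heyl, Spen and Numbl), against 5.95% of all tested genes. The median log2 fold change of the 39 genes was 0.03, with 23 above 0 and 16 below. Among all tested genes 48.4% were above 0. Of the 4 receptors none was called. Notch1 was at 46.7, 43.4 and 28.2 CPM in Hes1 cKO 1, 2 and 3 and at 30.4, 22.8, 29.8 and 27.8 CPM in control 1, 2, 3 and 4. High values were confined to Hes1 cKO 1 and 2, and Hes1 cKO 3 lay within the control range. The difference of 0.51 on the log2 scale (SE 0.17) had an edgeR adjusted p of 0.693. Notch2, the most counted receptor, had a log2 fold change of 0.01 (SE 0.09), Notch3 one of 0.30 (SE 0.19) and Notch4 one of -0.07 (SE 0.20).

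No other ligand or ligase gene was called. Dll3, a Delta relative that does not activate receptors on neighbouring cells, had at most 2 reads in a library and was not tested. Dlk2, a Delta-like protein without the receptor-binding domain of the true ligands, was at 0.382 to 0.516 CPM in control and 0.529 to 0.940 CPM in Hes1 cKO, too few reads to be tested. Dlk1, of the same kind and known from adrenal cells, was at 0.952, 1.04 and 20.2 CPM in Hes1 cKO 1, 2 and 3 and at 17.2, 5.24, 0.878 and 0.600 CPM in control 1, 2, 3 and 4. Its log2 fold change of 0.30 had an SE of 1.21. High Dlk1 was found in the libraries with high counts of 11 adrenal markers, whose summed level was 1191 CPM in Hes1 cKO 3, 900.1 in control 1 and 231 in control 2 and at most 52.3 in the other 4 libraries. The ligase Mib2 (log2 fold change 0.01, SE 0.09) and Neurl1a (0.37, SE 0.33) were not called, nor were the endocytic adaptors Epn1 and Epn2.

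The genes for receptor cleavage (Adam10, Adam17 and the gamma-secretase subunits) all lay close to 0, with log2 fold changes from -0.09 to 0.06 over 9 genes. Of 5 genes for receptor glycosylation, including the Fringe enzymes that set which ligands a receptor answers, 2 were above 0 and 3 below. Notch targets other than Hes1 were not called. Heyl had a log2 fold change of 0.56 with an SE of 0.22 (edgeR adjusted p 0.744), Hey1 one of 0.40 (SE 0.28), Hey2 one of 0.39 (SE 0.23) and Nrarp one of -0.17 (SE 0.39). Hes5 had at most 2 reads in a library. In the nuclear complex, all 5 genes were above 0, from 0.03 (Maml2) to 0.27 (Spen).

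**Figure D3:**
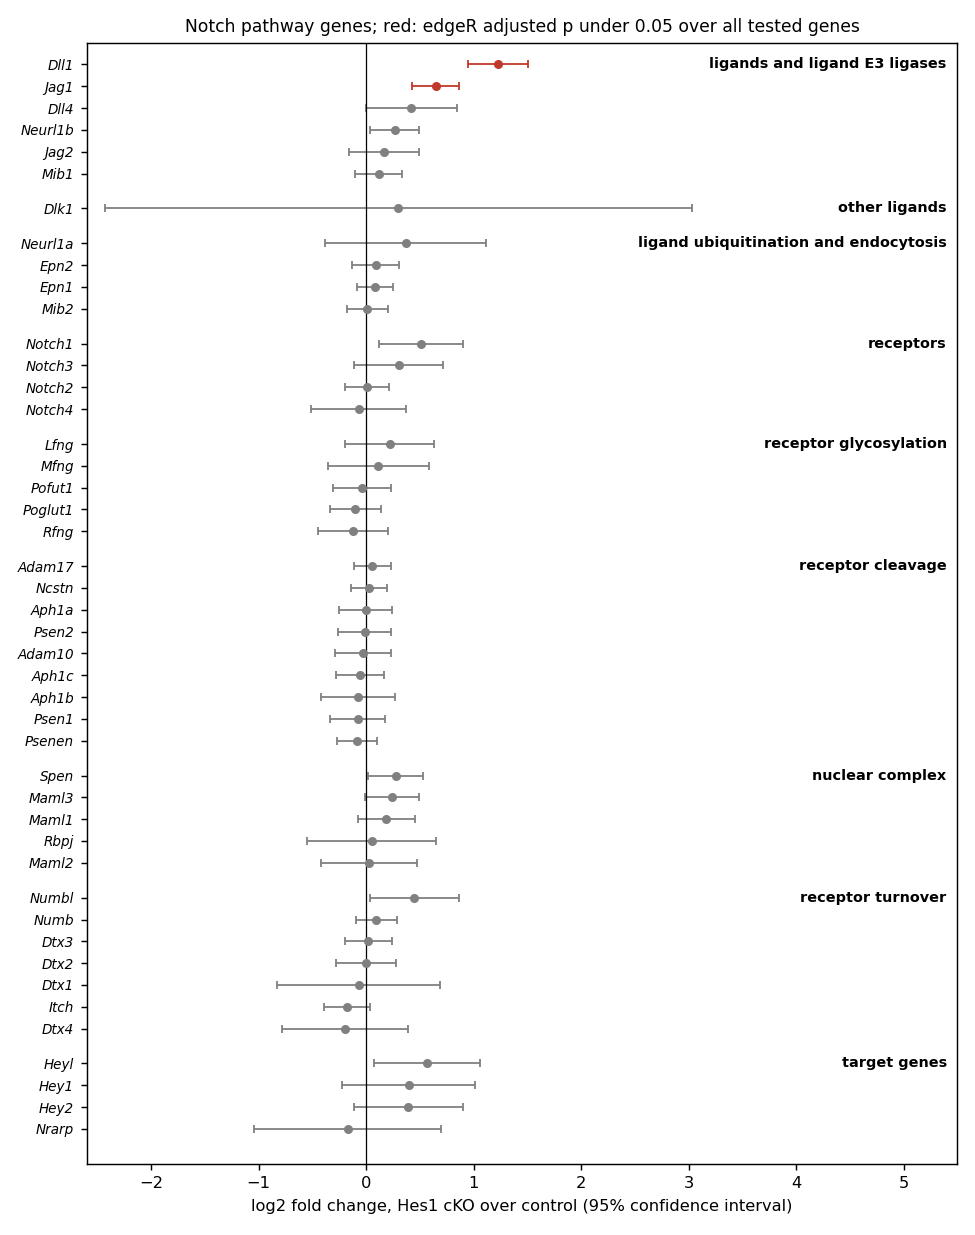
Log2 fold change of Hes1 cKO over control with its 95% confidence interval for the 6 genes described and 39 other tested Notch pathway genes, grouped by role. Dll1 (1.22) and Jag1 (0.64), in red, are the called genes, and among the others the intervals of Neurl1b, Notch1, Heyl, Spen and Numbl lie above 0 and the rest cross it.

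Cell type markers were summed in each library beside these results. Of 15 intercalated cell markers 10 were called, all higher in Hes1 cKO, against 0.320% of all tested genes called higher. An unadjusted edgeR p under 0.05 was found for 13 of the 15, against 5.95% of all tested genes. Only Rhcg was below 0 (log2 fold change -0.18). The sum of the 15 markers was 2209 to 2363 CPM in Hes1 cKO against 1150 to 1352 CPM in control, without overlap. Slc4a9, a bicarbonate transporter of intercalated cells, had a Hes1 cKO mean of 340.2 ± 53.2 CPM (SD, n = 3) and a control mean of 98.9 ± 18.9 CPM (SD, n = 4), while the proton pump subunit Atp6v0a4 (log2 fold change 0.17, SE 0.10) was not called. The 9 principal cell markers summed to 765 to 1220 CPM in Hes1 cKO and 1245 to 1894 CPM in control, apart by a narrow margin. Aqp2, the most counted of them, overlapped between the groups, at 399 to 737 CPM in Hes1 cKO and 682 to 1107 CPM in control. Of the principal cell markers Hsd11b2 was called (log2 fold change -1.12, SE 0.14), where 0.0192% of all tested genes were called lower. Aqp2 was not called (-0.78, SE 0.22, edgeR adjusted p 0.512). Of the 8 principal cell markers tested, 7 were below 0 and Elf5 was above (0.31). An unadjusted edgeR p under 0.05 was found for 5 of the 8, all lower in Hes1 cKO. The part of these shifts in the rise of Dll1 and Jag1 was not tested.

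For cell types that carry Dll4, Jag1 and Jag2 in vessels, the marker sums overlapped between the groups. The 10 endothelial markers, led by Plvap and Eng, summed to 462 to 748 CPM in Hes1 cKO and 578 to 704 CPM in control. The 5 arterial markers, led by Efnb2 and Sox17, summed to 79.0 to 102 and 77.3 to 95.2 CPM, and the 6 smooth muscle and pericyte markers, led by Myh11 and Pdgfrb, to 187 to 294 and 193 to 221 CPM. None of their genes was called by edgeR. An unadjusted edgeR p under 0.05 was found for 5.95% of all tested genes. It was found for 1 of the 10 endothelial genes, Emcn, which was lower in Hes1 cKO (log2 fold change -0.47). Of the 5 arterial genes 1 had such a p, Efnb2, which was higher (0.25), and of the tested smooth muscle genes 0. Proximal tubule (Slc34a1, Lrp2), thick ascending limb (Umod, Slc12a1), distal convoluted tubule (Slc12a3, Pvalb) and immune cell markers (Ptprc, Cd68) held no called gene either. Among these lists only thick ascending limb held genes at an unadjusted edgeR p under 0.05. They were 2 of its 4, Cldn16 (log2 fold change -0.39) and Cldn10 (-0.28). Immune markers were near 0, at 4.85 to 7.41 CPM in sum, with at most 5 reads of Cd3e in a library. The adrenal markers, led by Star and Hsd3b1, were not called. Without both libraries of highest adrenal level (Hes1 cKO 3 and control 1), an alternative chosen after seeing the data, Dll1 and Jag1 were still called, with log2 fold changes of 1.24 and 0.68 (edgeR adjusted p 0.0333 and 0.0416).

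**Figure D4:**
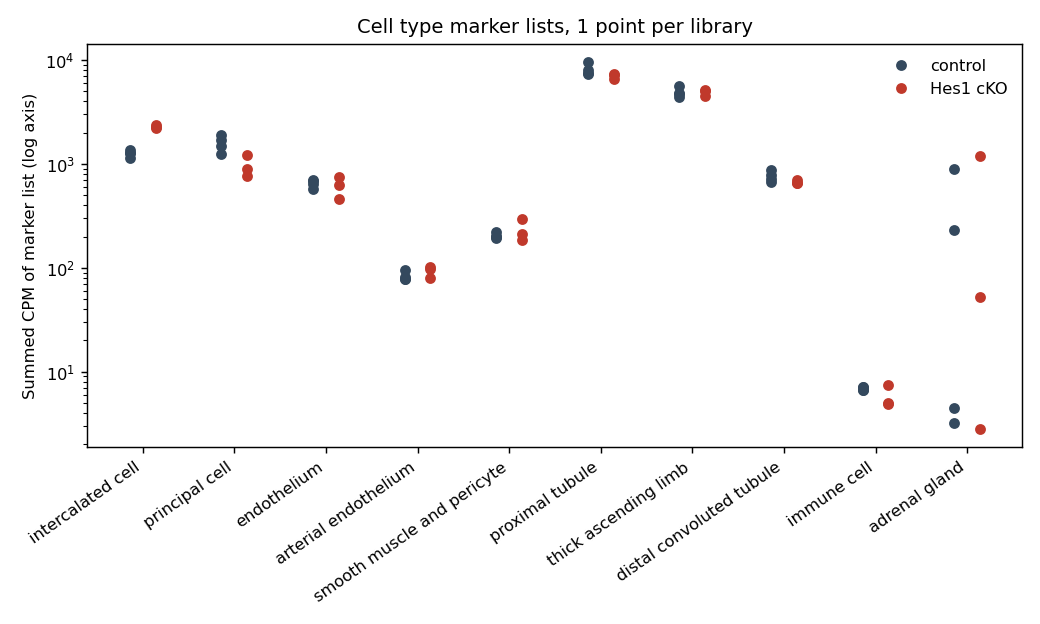
Summed CPM of each cell type marker list on a log axis, 1 point per library. The intercalated cell sum lies at 2209 to 2363 CPM in Hes1 cKO against at most 1352 CPM in control, the principal cell sum lies lower in Hes1 cKO, and the adrenal sum spreads from 2.82 to 1191 CPM within the groups.

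The genes with profiles most like those of Dll1 and Jag1 were sought among 14143 other tested genes with a mean of at least 1 CPM. Likeness was the root mean square difference, over the 7 libraries, of log2(CPM + 1) after subtraction of each gene's mean. It takes in the difference between the groups, so a like group difference in the nearest genes follows from the choice. Nearest to Dll1 were Exoc3l4 (difference 0.13), Dagla (0.14), which encodes an endocannabinoid-producing lipase, and Sh2d4b (0.15). Exoc3l4 was at 29.1 ± 2.33 CPM (SD, n = 3) in Hes1 cKO and 12.01 ± 1.68 CPM (SD, n = 4) in control, close to the levels of Dll1 in both. Nearest to Jag1 were the keratin gene Krt80 (0.084) and the LIM protein genes Csrp1 (0.085) and Lmcd1 (0.086). Krt80 had 30.5 ± 1.62 CPM (SD, n = 3) in Hes1 cKO and 18.5 ± 2.20 CPM (SD, n = 4) in control. It was called (edgeR adjusted p 0.0368), as were the genes nearest to Dll1, while Csrp1 (0.100) and Lmcd1 (0.0570) were not.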

How the data were processed

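RNA of whole kidneys was sequenced as 150 bp read pairs, per the labels' protocols. The authors deposited 2 tables of whole-number read counts per gene, with no normalization. FastQC, STAR and DESeq2 and the build mm10 (GRCm38) are named in the submitters' processing notes; the sources used here do not give the counting program, strand setting or annotation. Titles name 7 Hes1 cKO and 9 control samples, the series text the reverse, and the titles were followed. The table with genotypes in its column names (3 and 4 libraries) was used; the 9 columns of the other table show no genotype and were not used. Chi-square per degree of freedom between libraries of a group was 11.8 to 41.0, more than counting alone gives. No library was thus the same library of its group sequenced again. These values cannot tell separate animals from separate preparations of the same animal, because such preparations can also differ by more than counting noise. Libraries with high Xist were Hes1 cKO 3 and control 3 and 4.

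Genes were kept by filterByExpr (minimum count 10) in edgeR 4.0.16 (R 4.3.3), scaled by TMM and tested by the quasi-likelihood test without covariates. The SE is the log2 fold change over the root of F. Alternatives were DESeq2 1.42.0, limma-voom (limma 3.58.1), other scalings and filters, Xist as a covariate and each library left out. Lengths and positions are from GENCODE M21, promoters from RefSeq. The genes, lists and tests were chosen with earlier results of these data known. The text names the 6 genes, Hes1, called pathway genes, the other ligands, ligases and receptors. It also names the 3 nearest profiles of each called gene and the 2 most counted markers of each list. Further pathway genes, further markers and the reads of opposite-strand transcripts were named after their values were seen.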

Additional observations from a re-analysis of the deposited data

Results flagged for a closer look

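Dixon's test (95% level) was run on 32 sets of 4 control values, of which chance marks about 1 in 20, and 2 sets held an outlying library. The 3 Hes1 cKO libraries were too few for the test. Dll1 was low in control 2, at 9.58 CPM against 11.8 to 12.1 CPM in the other controls, a gap of 0.893 of the whole range. Without control 2 the log2 fold change of Dll1 was 1.15 (edgeR adjusted p 0.0121). Mib1 was low in control 3, at 99.9 CPM against 112 to 114 CPM, a gap of 0.874 of the range.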

How the results depend on the processing

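Dll1 kept its direction and its call under each of the 15 alternatives (log2 fold change 1.14 without Hes1 cKO 1 to 1.31 without Hes1 cKO 2). Jag1 kept both in 9 of 15 and lost the call in 6 fits that left out a library. It kept the call without Hes1 cKO 3, and without both Hes1 cKO 3 and control 1. The cause of the loss was not tested. Over the 7 fits that left out 1 library, the log2 fold change of Jag1 ran from 0.587 to 0.724. Dll4, Jag2, Mib1 and Neurl1b stayed above 0 and uncalled in all 15, with Dll4 between 0.21 and 0.68. The count of called genes, 53, 50 higher and 3 lower in Hes1 cKO, became 102 without a filter on low counts (78 and 24) and 130 by DESeq2's Wald test (96 and 34), and 25 to 47 when a library was left out (25 without Hes1 cKO 2, 27 without Hes1 cKO 1); the cause was not tested. The Dll1 to Jag1 log2 ratio difference ran from 0.48 to 0.70 over its 8 alternatives, in which fits without a library cannot reach the threshold. No gene of the other Notch lists was called in the 11 alternatives run. No paired analysis was possible because the column names carry no replicate number of the titles that is identified as such. The names do end in numbers, but the meaning of these is not stated. Nothing in the labels says that animals with the same title number form a pair. At these depths Dll3, Dlk2 and Hes5 had too few reads to be tested.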

Other observations

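Within the Hes1 cKO group, Hes1 cKO 1 held the highest value of 5 of the 6 ligand and ligase genes (all but Mib1), and it was the highest library for 34.1% of all tested genes. Of the 39 other Notch pathway genes it was highest for 21, Notch1 and Heyl among them. Heyl was at 18.1 CPM in Hes1 cKO 1, 12.3 in Hes1 cKO 2 and 9.94 in Hes1 cKO 3, against 6.71 to 10.4 CPM in control. Hes1 cKO 3 was the lowest of the 3 for 4 of the 6 genes (Dll4, Jag1, Jag2 and Neurl1b) and for 34.9% of all tested genes.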
